A study of Mus musculus with 14 samples.

Results

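The oligoadenylate synthetase (OAS) family was followed through 14 RNA sequencing libraries from Lewis lung carcinoma (LLC) tumors. Its members were taken by symbol: Oas1a (gene ID 246730), Oas2 (246728), Oas3 (246727), Oasl1 (231655) and Oasl2 (23962), 5 of the 12924 genes in each deposited table. All 5 passed the filter on low values in both tables.

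LLC, a mouse lung tumor line, had been grown for 14 days in the flanks of C57BL/6 mice. The hosts were p110g-/- mice, null for PI3K gamma, a lipid kinase prominent in myeloid cells whose catalytic subunit is encoded by Pik3cg, or wild-type (WT) mice. From tumors of either host, CD11b+Gr1- cells were sorted, which the labels call tumor-associated macrophages (TAM; 1000000 cells per library, 4 p110g-/- and 4 WT libraries), and pieces of whole tumor were taken (30 mg, 3 p110g-/- and 3 WT libraries). The labels give the genotype of the hosts only, name no cell type to which the loss is limited, and do not say whether each library came from a separate animal. The p-values therefore measure the spread between these libraries, which may be technical.

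OAS enzymes bind double-stranded RNA and then join ATP into short oligoadenylates, the signal of an antiviral defense. Their genes are classic targets of interferon, switched on through the receptor-bound kinases and a factor complex that holds Stat2 and Irf9. Oas1a is a single-unit enzyme, and Oas2 and Oas3 are built from repeated copies of the same unit. The Oasl proteins carry ubiquitin-like domains. Mouse Oasl2 has synthetase activity, whereas mouse Oasl1 lacks it and is known to restrain the translation of Irf7, a master factor of type I interferon production. Macrophages are among the cells that express the family strongly.

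Interferon targets are often reached through a response element in the promoter, so the 150 bases before the start of the members are shown here, 5′ to 3′ on the gene's strand, from RefSeq on GRCm38.p6. Capitals mark matches to GAAANNGAAA, the core of the interferon-stimulated response element, searched on both strands.
Oas1a, chr5:120907526-120907675, minus strand: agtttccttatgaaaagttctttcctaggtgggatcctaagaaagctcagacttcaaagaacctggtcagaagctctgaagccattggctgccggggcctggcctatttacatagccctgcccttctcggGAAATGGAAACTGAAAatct
Oas3, chr5:120777660-120777809, minus strand: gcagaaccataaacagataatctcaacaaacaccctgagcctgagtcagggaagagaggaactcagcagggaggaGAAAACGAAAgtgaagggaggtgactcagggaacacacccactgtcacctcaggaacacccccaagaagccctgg
Oasl1, chr5:114923090-114923239, plus strand: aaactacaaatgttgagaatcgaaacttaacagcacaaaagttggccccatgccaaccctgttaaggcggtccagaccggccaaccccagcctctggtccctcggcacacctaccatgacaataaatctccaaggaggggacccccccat
Oasl2, chr5:114896784-114896933, plus strand: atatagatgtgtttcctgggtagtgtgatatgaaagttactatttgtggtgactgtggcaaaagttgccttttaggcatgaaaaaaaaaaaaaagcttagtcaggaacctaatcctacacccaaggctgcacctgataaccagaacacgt
The stretch of Oas1a held 2 matches that overlap each other, at −20 to −11 and −14 to −5 from the start, and that of Oas3 held 1 match at −75 to −66. The stretches of Oasl1 and Oasl2 held none, and Oas2 was not in the promoter table. Of all 32851 promoters in the table, 521 (1.59%) held a match in the same stretch. A second motif, TTCNNNGAA, the GAS element used by interferon-gamma, matched Oas1a at −98 to −90 and no other member shown, against 1344 (4.09%) of the promoters. Oas1g, a paralog of Oas1a described below, held the same matched letters as Oas1a at −18 to −9 and −12 to −3. These matches describe letters and show no binding.

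The values are normalized counts made by the authors. Column totals were 33248294 to 38153438 in TAM and 25883561 to 27586429 in whole tumor. In 6 of the 8 TAM libraries 1 read was worth 1.08 to 1.94 normalized counts, and in the other 8 libraries at most 1. The lowest member value in TAM, 264 normalized counts for Oasl1 in p110g-/- TAM 4, thus stood for about 136 reads. Mitochondrial genes took 2.73%, 3.21%, 9.01% and 14.4% of the values in p110g-/- TAM 1 to 4, and 2.51%, 3.06%, 7.70% and 9.59% in WT TAM 1 to 4. In whole tumor they took 2.49% to 3.32%. Pik3cg, the targeted gene, was lower in p110g-/- in both sample kinds, at 1210 to 2211 against 2748 to 4477 normalized counts in WT TAM, and at 242 to 417 against 487 to 616 in WT tumors (limma adjusted p = 0.299 in TAM, 0.00557 with the block described below, and 0.0555 in whole tumor). Macrophage markers summed to 149861 to 221818 normalized counts in the TAM libraries and to 26135 to 39662 in whole tumors. Same-numbered TAM libraries of the genotypes deviated together, so TAM results are given without and with the library number as a block.

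Sorted p110g-/- TAM held less RNA of every member than WT TAM in each of the 4 same-numbered pairs. The ratio of group means was 0.253 for Oasl1, 0.378 for Oas3, 0.424 for Oasl2, 0.467 for Oas2 and 0.578 for Oas1a. Without the block, 0 of the 5 members passed limma at an adjusted p of 0.05, where 5 of 12475 genes (0.0401%) passed as lower. At an unadjusted p under 0.05 there were 732 genes (5.87%). With the block all 5 passed as lower, against 186 genes (1.49%). The median log2 fold change was −1.28 over the members and −0.01 over all genes tested. In bulk libraries, fewer cells of a type and less RNA per cell cannot be told apart.

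Among the synthetases, Oas1a, the single-unit enzyme, held 3080, 2139, 1852 and 1763 normalized counts in p110g-/- TAM 1 to 4, against 4967, 3670, 3084 and 3558 in WT TAM 1 to 4. The groups did not overlap, but the highest p110g-/- library and the lowest WT library lay 4 normalized counts apart. The means were 2209 ± 603 in p110g-/- and 3820 ± 806 in WT (SD, n = 4 each). The log2 fold change was −0.80 (SE 0.20), with a limma adjusted p of 0.360, and 0.00403 with the block.

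Oas2, a synthetase of repeated units, held 2902, 848, 1019 and 876 normalized counts in p110g-/- TAM 1 to 4, against 5132, 2533, 2133 and 2294 in WT TAM 1 to 4. Library 1 stood far above the other 3 libraries of its genotype in both groups, so the groups overlapped although every pair went the same way. The log2 fold change was −1.21 (SE 0.44), with a limma adjusted p of 0.679, and 0.00739 with the block.

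Oas3, the largest enzyme of the family and one with high affinity for long double-stranded RNA, held 1573, 722, 616 and 512 normalized counts in p110g-/- TAM 1 to 4. WT TAM 1 to 4 held 3206, 2677, 1519 and 1649. The overlap came from p110g-/- library 1 alone, which lay between the 2 lowest WT libraries. The log2 fold change was −1.48 (SE 0.38), with a limma adjusted p of 0.374, and 0.00621 with the block.

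Oasl1, the member without synthetase activity, had the lowest ratio of the 5. It held 518, 429, 327 and 264 normalized counts in p110g-/- TAM 1 to 4, against 2077, 1805, 1005 and 1182 in WT TAM 1 to 4. The groups were wide apart. The means were 384.5 ± 112 in p110g-/- and 1517 ± 507 in WT (SD, n = 4 each). The log2 fold change was −1.96 (SE 0.29), with a limma adjusted p of 0.0683, and 0.00105 with the block.

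Oasl2, the synthetase-like member with enzyme activity in mouse, held 2900, 1359, 1125 and 967 normalized counts in p110g-/- TAM 1 to 4. WT TAM 1 to 4 held 6163, 3711, 2401 and 2714. Again p110g-/- library 1 was the one within the WT range. The log2 fold change was −1.28 (SE 0.40), with a limma adjusted p of 0.540, and 0.00250 with the block.

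**Figure D1:**
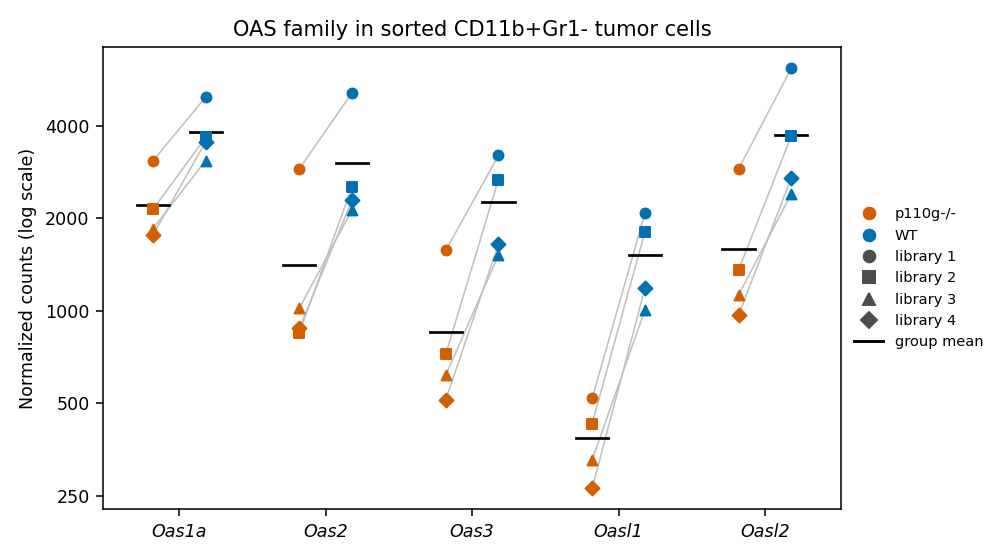
Normalized counts (log scale) of the 5 members in sorted TAM, p110g-/- left in orange and WT right in blue, with a symbol per library number, thin lines joining same-numbered libraries and black bars at the group means (n = 4 each). Every line climbs from p110g-/- to WT, and the circles (library 1) are the highest points of every group, as for Oas2 at 2902 in p110g-/- and 5132 in WT.

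The libraries of number 1 held the highest value of every member in their genotype. The 5 members summed to 10973, 5497, 4939 and 4382 normalized counts in p110g-/- TAM 1 to 4, against 21545, 14396, 10142 and 11397 in WT TAM 1 to 4, so the position of p110g-/- library 1 recurred in the sum. Across the 4 pairs, the log2 difference of p110g-/- minus WT ran from −1.01 to −0.69 for Oas1a, −1.58 to −0.82 for Oas2, −1.89 to −1.03 for Oas3, −2.16 to −1.62 for Oasl1 and −1.49 to −1.09 for Oasl2. All 5 members were among the 1905 genes (15.3%) that were lower in every pair, and Oas1a and Oasl1 among the 241 (1.93%) whose groups did not overlap with p110g-/- lower.

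Libraries 1 and 2 differ from 3 and 4 in mitochondrial share in both genotypes, so the members were also compared within each pair of numbers. With libraries 1 and 2 only, the log2 fold changes were −0.73 for Oas1a, −1.20 for Oas2, −1.46 for Oas3, −2.04 for Oasl1 and −1.27 for Oasl2, and none of the 5 passed limma, nor did any other gene. With libraries 3 and 4 only, they were −0.87, −1.23, −1.49, −1.89 and −1.29 in the same order, and all 5 passed as lower, where 658 of 12629 genes (5.21%) passed as lower and 770 (6.10%) as higher. The values were thus of like size in both sets of libraries. Without p110g-/- library 1, Oasl1 passed without the block (limma adjusted p = 0.0394), as the only member to do so, where 26 of 12563 genes (0.207%) passed as lower.

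In whole tumors 4 of the 5 members had a higher mean in p110g-/- than in WT, and Oasl1 a lower one. The ratio of means, p110g-/- over WT, was 1.72 for Oas2, 1.58 for Oas3, 1.37 for Oasl2, 1.23 for Oas1a and 0.871 for Oasl1. Without a block 0 of the 5 members passed limma, where 286 of 12717 genes (2.25%) passed as higher, 267 (2.1%) as lower and 3332 (26.2%) reached an unadjusted p under 0.05. With every library scaled to the same total, 393 genes passed as higher and 182 as lower, and still 0 of the members. The median log2 fold change was 0.44 over the members and 0.01 over all genes tested.

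Oas1a held 379, 493 and 538 normalized counts in p110g-/- tumors 1 to 3, against 357, 342 and 444 in WT tumors 1 to 3. The groups overlapped (log2 fold change 0.30, SE 0.15, limma adjusted p = 0.260). Oas2 held 236, 342 and 378 in p110g-/- tumors, against 158, 183 and 214 in WT tumors. Every p110g-/- tumor was above every WT tumor for Oas2, yet the gene missed the threshold (log2 fold change 0.76, SE 0.19, limma adjusted p = 0.0630).

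Oas3 held 263, 352 and 400 normalized counts in p110g-/- tumors 1 to 3, against 204, 214 and 224 in WT tumors 1 to 3. Its groups did not overlap either, and the WT tumors were close together (log2 fold change 0.64, SE 0.15, limma adjusted p = 0.0566). Oasl2 held 649, 849 and 859 in p110g-/- tumors and 542, 566 and 611 in WT tumors, again with no overlap (log2 fold change 0.44, SE 0.12, limma adjusted p = 0.0681). Groups of 1991 genes (15.7%) did not overlap with p110g-/- higher. Tumor p110g-/- 1 was the lowest p110g-/- tumor for Oas1a, Oas2, Oas3 and Oasl2, and without it Oas2, Oas3 and Oasl2 passed at limma adjusted p of 0.0147, 0.0112 and 0.0112. Without that tumor 980 of 12745 genes (7.69%) passed as higher. In all, 2001 genes passed without it, and 553 with it.

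Oasl1 was the exception in direction. It held 95, 110 and 111 normalized counts in p110g-/- tumors 1 to 3, against 100, 119 and 144 in WT tumors 1 to 3. The groups overlapped, and its value was not told from 0 (log2 fold change −0.19, SE 0.16, limma adjusted p = 0.499).

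**Figure D2:**
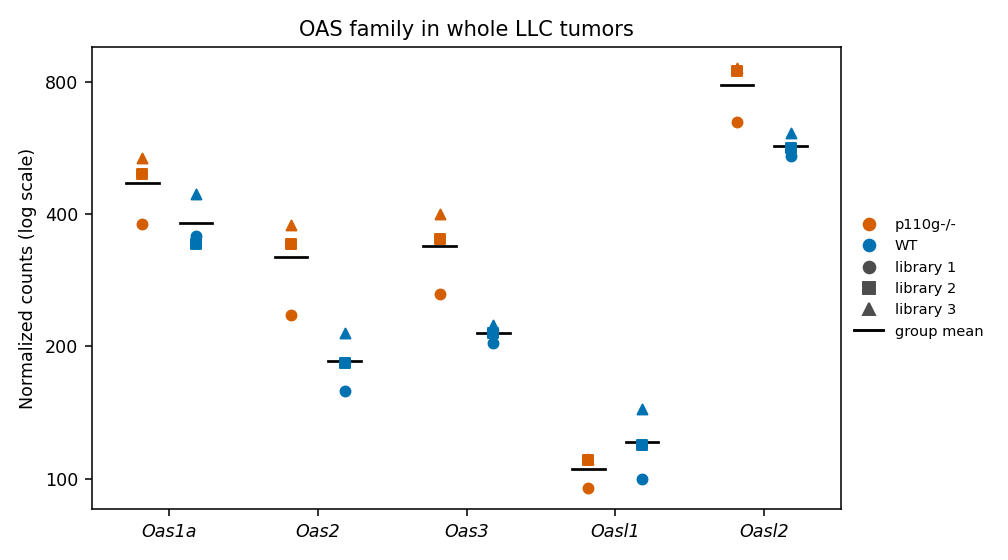
Normalized counts (log scale) of the 5 members in whole tumors, p110g-/- left in orange and WT right in blue, with a symbol per library number and black bars at the group means (n = 3 each). For Oas2, Oas3 and Oasl2 the p110g-/- tumors sit above the WT tumors, whereas for Oasl1 the 95 to 111 of p110g-/- lie within or below the 100 to 144 of WT.

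The genotype effects of the 2 sample kinds were set against each other with a limma interaction over all 14 libraries, subtracting the log2 fold change of whole tumor. The difference was −1.10 for Oas1a (SE 0.30), −1.98 for Oas2 (SE 0.58), −2.11 for Oas3 (SE 0.50), −1.78 for Oasl1 (SE 0.39) and −1.72 for Oasl2 (SE 0.51), on the log2 scale. Without a block 0 of the 5 passed limma, at adjusted p of 0.138 to 0.373, where 13 of 12396 genes (0.105%) passed with a lower value in TAM and 805 (6.49%) reached an unadjusted p under 0.05. With a block on the TAM numbers, all 5 passed, against 300 genes (2.42%). The limma adjusted p was then 0.00844 for Oas1a, 0.00245 for Oas2, 0.00111 for Oas3, 0.00111 for Oasl1 and 0.00109 for Oasl2. The block takes the TAM numbers as pairs, although the labels do not say what a number marks. Opposite signs, lower in TAM and higher in whole tumor, were found in 4 of the 5 members and in 3041 genes (24.5%). Without p110g-/- TAM 1, all 5 passed without a block, at limma adjusted p of 0.0132 to 0.0450, where 81 of 12477 genes (0.649%) passed with a lower value in TAM. Leaving out any other single library of the 14 called 0 of the 5.

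**Figure D3:**
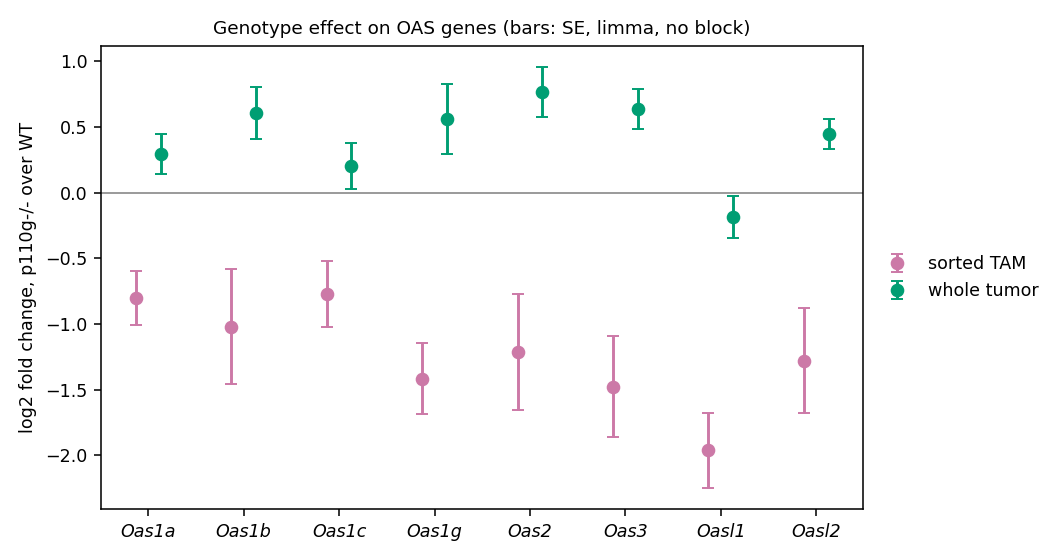
Log2 fold change of p110g-/- over WT for the 5 members and 3 Oas1 paralogs in sorted TAM (left points) and whole tumor (right points), with bars of 1 SE from limma without a block. The TAM points all lie below 0, from −1.96 for Oasl1 to −0.77 for Oas1c, and the tumor points above it except Oasl1 at −0.19.

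The level of Oasl1 relative to the other members was also compared within each library. This comparison was chosen after the values had been seen, because Oasl1 had the lowest fold change of the 5 in TAM. The log2 ratio of Oasl1 to Oas1a, in normalized counts, was −2.53 ± 0.17 in p110g-/- TAM and −1.37 ± 0.28 in WT TAM (SD, n = 4 each), with no overlap (exact permutation p = 0.0286, two-sided; 0.0952 adjusted over the 10 pairs of members). Against Oas3 it was −1.05 ± 0.38 in p110g-/- TAM and −0.57 ± 0.06 in WT TAM, and against Oasl2 −1.95 ± 0.37 and −1.27 ± 0.22 in the same order. Both had the same p by the exact permutation test, 0.0286, which is the smallest that 70 labelings can give. Against Oas2 the ratio was −1.71 ± 0.62 in p110g-/- TAM and −0.96 ± 0.34 in WT TAM, with overlap (exact permutation p = 0.0857). These permutations do not use the library numbers. By same-numbered pairs, each of the 4 ratios of Oasl1 was lower in p110g-/- TAM in 4 of 4 pairs, and 4 of the 6 ratios without Oasl1 also went one way in all 4. The exact sign-flip test over 4 pairs, added after the values had been seen, gave 0.125 for each of these, the smallest p it can give. None of the 10 pairs of members passed after adjustment of the unpaired test, and the 6 pairs without Oasl1 had exact permutation p from 0.0857 to 0.686.

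In whole tumors, the log2 ratio of Oasl1 to Oas2 was −1.56 ± 0.23 in p110g-/- tumors and −0.61 ± 0.04 in WT tumors (SD, n = 3 each). The ratio to Oas3 was −1.66 ± 0.19 in p110g-/- and −0.83 ± 0.19 in WT, to Oasl2 −2.88 ± 0.10 and −2.25 ± 0.17, and to Oas1a −2.14 ± 0.14 and −1.65 ± 0.16, each p110g-/- first. None of these 4 ratios overlapped between the genotypes, and neither did 4 of the 6 ratios without Oasl1, so the separation was not particular to Oasl1. The ratio of Oas1a to Oas2 was 0.57 ± 0.10 in p110g-/- and 1.04 ± 0.14 in WT, and that of Oas1a to Oas3 was 0.48 ± 0.05 in p110g-/- and 0.82 ± 0.16 in WT. Relative to Oasl2, Oas2 and Oas3 were higher in p110g-/- tumors without overlap. With 3 tumors against 3, the exact permutation test cannot go below 0.1.

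**Figure D4:**
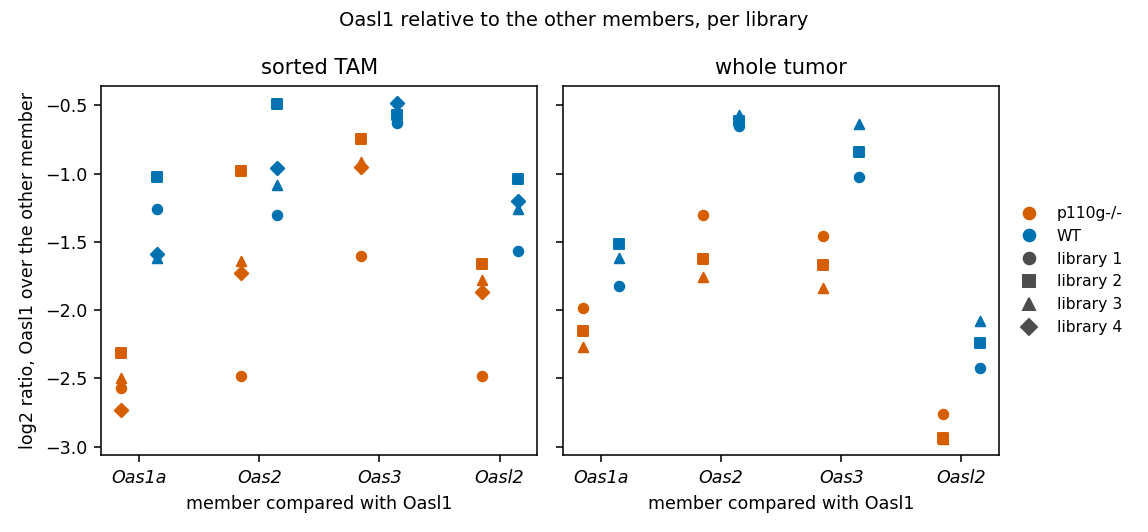
Log2 ratio of Oasl1 to each other member within a library, in sorted TAM (left panel) and whole tumor (right panel), p110g-/- left in orange and WT right in blue with a symbol per library number. Orange points lie below blue ones for every member in both panels, with overlap for Oas2 in TAM, where the means are −1.71 in p110g-/- and −0.96 in WT.

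Levels were compared between genes as normalized counts per 1000000 of the column total and per kilobase of exon, with exon lengths from GENCODE M21. By this measure Oas1a was the most abundant member in all 4 groups, at 33.8 ± 10.6 in p110g-/- TAM and 60.0 ± 11.8 in WT TAM (SD, n = 4 each). In p110g-/- TAM it was followed by Oas2 (9.21 ± 6.87), Oasl2 (7.23 ± 4.34), Oasl1 (4.26 ± 1.42) and Oas3 (3.52 ± 2.13), whose neighbours did not differ beyond their SD. In WT TAM the order was the same, with Oas2 (20.0 ± 9.08), Oasl2 (17.4 ± 7.66) and Oasl1 (17.2 ± 5.61) close together and Oas3 lowest (9.47 ± 3.33).

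In p110g-/- tumors the levels were 9.42 ± 1.79 for Oas1a, 4.66 ± 0.794 for Oasl2, 2.71 ± 0.668 for Oas2, 1.81 ± 0.397 for Oas3 and 1.52 ± 0.162 for Oasl1 (SD, n = 3). Oasl1 was thus lowest there, within the SD of Oas3. In WT tumors they were 7.38 ± 1.01 for Oas1a, 3.28 ± 0.180 for Oasl2, 1.69 ± 0.298 for Oasl1, 1.52 ± 0.221 for Oas2 and 1.11 ± 0.0455 for Oas3, and Oasl1 and Oas2 did not differ beyond their SD. Without the exon length, Oasl2 exceeded Oas1a in whole tumors, at 29.7 against 17.8 per 1000000 in p110g-/- and 20.9 against 13.9 in WT. In TAM Oas1a stayed above Oasl2, at 63.7 against 46.1 in p110g-/- and 113 against 111 in WT. Per 1000000, the TAM mean exceeded the whole tumor mean for every member in either genotype. In p110g-/- the ratio was 3.58 for Oas1a, 3.40 for Oas2, 1.94 for Oas3, 2.79 for Oasl1 and 1.55 for Oasl2. In WT it was 8.12 for Oas1a, 13.2 for Oas2, 8.56 for Oas3, 10.2 for Oasl1 and 5.29 for Oasl2. The tables had been normalized separately, so these ratios carry no test.

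Oas1a has close paralogs, of which Oas1b, Oas1c and Oas1g were measured. Of the distinct stretches of 50 bases in the Oas1a transcripts, 57.6% also occurred in Oas1g, and 45.2% of those of Oas1g in Oas1a. The sources used here do not say how such reads were counted, so the split of reads between these genes is uncertain. The share was 0.521% for Oas3, 0.138% for Oasl2, and 0 for Oas2 and Oasl1 against all other genes.

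Oas1g held 991, 573, 585 and 395 normalized counts in p110g-/- TAM 1 to 4, against 2088, 1521, 1281 and 1647 in WT TAM 1 to 4, with no overlap (log2 fold change −1.42, limma adjusted p = 0.175, and 0.0103 with the block). Oas1b held 86 to 244 in p110g-/- TAM and 152 to 470 in WT TAM (log2 fold change −1.02, limma adjusted p = 0.828, and 0.0374 with the block). Oas1c held 91 to 166 in p110g-/- TAM and 182 to 256 in WT TAM, without overlap (log2 fold change −0.77, limma adjusted p = 0.587, and 0.0579 with the block). In whole tumors the 3 paralogs had log2 fold changes of 0.56 for Oas1g, 0.60 for Oas1b and 0.20 for Oas1c, at limma adjusted p of 0.116 to 0.498. The paralogs thus went the way of Oas1a in both sample kinds. Of the 3, Oas1b did not overlap in whole tumor, at 69 to 111 in p110g-/- tumors and 58 to 62 in WT tumors.

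Values of the listed type I ligands, such as Ifnb1 and Ifna1, were not available here, so their RNA was not read. Of 9 interferon ligand genes listed, Ifng was the one analysed here. It was near 0 in TAM, at 1 to 6 normalized counts in p110g-/- and 0 to 6 in WT, below the minimum for a test. In whole tumors it held 33, 45 and 39 in p110g-/- and 2, 2 and 9 in WT. Ifng thus rose in p110g-/- tumors (log2 fold change 3.15, SE 0.50, limma adjusted p = 0.0243). Oas2, Oas3 and Oasl2 lay above WT in the same tumors, without passing limma when no block was used. A link between these genes and Ifng was not tested.

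Of 14 genes for interferon receptors and signalling, 10 were lower and 4 higher in p110g-/- TAM, with a median log2 fold change of −0.10. Over all genes tested in TAM, 53.2% were lower. Of the 14 genes here, the calls were as follows. None passed without the block. With it Irf7, Stat2 and Irf9 passed as lower, against 1.49% of all genes tested. Irf7 averaged 2120 ± 1006 normalized counts in p110g-/- TAM and 8570 ± 2416 in WT TAM (SD, n = 4 each; log2 fold change −2.08, limma adjusted p = 0.0683, and 0.00105 with the block). Oasl1, which restrains its translation in mouse, had a log2 fold change of −1.96. The receptor genes Ifnar1 and Ifnar2 had log2 fold changes of 0.10 and −0.17 in TAM, at blocked limma adjusted p of 0.373 and 0.221.

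In whole tumors 12 of these 14 genes were higher, against 51.6% of all genes tested, with a median of 0.14, and 1 rose. This was Irf1, a target of interferon-gamma, which averaged 3259 ± 172 in p110g-/- tumors and 1932 ± 236 in WT tumors (SD, n = 3 each; log2 fold change 0.76, limma adjusted p = 0.00940). Irf7 did not pass there (log2 fold change 0.19, limma adjusted p = 0.573).

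Of 12 RNA and DNA sensor genes, 10 were lower in p110g-/- TAM, against 53.2% of all genes tested, with a median log2 fold change of −0.42. None passed without the block. Where 1.49% of all genes tested passed as lower with it, 7 of the 12 did. These were the RNA sensors Ddx58, Ifih1 and Dhx58, the kinase Eif2ak2, the RNA-editing enzyme Adar, and the nucleic acid sensors Zbp1 and Mb21d1, at blocked limma adjusted p of 0.00310 to 0.0431. In whole tumors 12 of 12 were higher, against 51.6% of all genes tested, with a median of 0.23. Zbp1 rose there, at 498 ± 92.4 normalized counts in p110g-/- tumors and 271 ± 40.0 in WT tumors (SD, n = 3 each; log2 fold change 0.87, limma adjusted p = 0.0293).

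Of 5 feedback regulators, 3 passed as lower in p110g-/- TAM with the block, against 1.49% of all genes tested, and none without it. They were Isg15, a ubiquitin-like protein, Usp18, the enzyme that removes it, and Trex1, a DNA exonuclease. Isg15 averaged 685.5 ± 207 normalized counts in p110g-/- TAM and 2057 ± 549 in WT TAM (log2 fold change −1.59, limma adjusted p = 0.0683, and 0.000960 with the block). Socs3, an inhibitor of cytokine signalling, had a log2 fold change of 0.66 in TAM, with no overlap between the genotypes (limma adjusted p = 0.460, and 0.0549 with the block). In whole tumors none of the 5 passed, and Isg15 and Usp18 had log2 fold changes of 0.11 and 0.17.

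**Figure D5:**
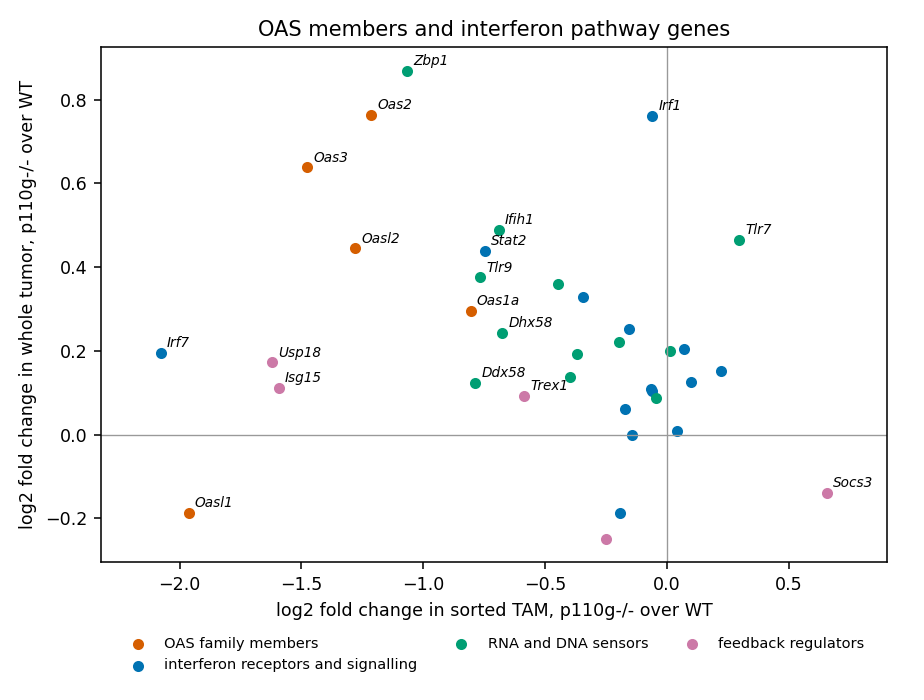
Log2 fold change of p110g-/- over WT in sorted TAM (horizontal axis) and whole tumor (vertical axis) for the members and the pathway genes, a point per gene colored by list, with gray lines at 0. Oas2, Oas3, Oasl2 and Oas1a lie at the upper left, and Oasl1 lies lower left at −1.96 and −0.19.

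Markers of other cells moved with the family in part. In TAM, the monocyte marker Ly6c2 averaged 169.5 ± 101 normalized counts in p110g-/- and 692 ± 483 in WT (log2 fold change −1.99, limma adjusted p = 0.360, and 0.00604 with the block). Plac8, another monocyte marker, averaged 948.5 ± 1023 and 2008 ± 1628 in the same order (log2 fold change −1.30, limma adjusted p = 0.999, and 0.00805 with the block). Ly6c2 and Plac8 were the 2 of 5 monocyte markers tested to pass with the block, where 1.49% of all genes passed as lower. The 5 summed to 21885 to 73564 in p110g-/- TAM and 30964 to 71137 in WT TAM. Bst2, listed with plasmacytoid dendritic cells but itself an interferon target, held 1933 to 2658 in p110g-/- TAM and 4070 to 4808 in WT TAM (log2 fold change −0.94, limma adjusted p = 0.0302), while Siglech, the defining marker of those cells, held 2 to 8 and 4 to 16. Macrophage markers summed to 153027 to 217846 in p110g-/- TAM and 149861 to 221818 in WT TAM. Of the 7 macrophage markers tested, 3 were lower and 4 higher in p110g-/- TAM, with a median log2 fold change of 0.16. Csf1r, Mrc1 and Mertk were higher in 4 of 4 pairs, without passing with the block. Fcgr1, an Fc receptor, was the only 1 of the 7 to pass with the block, as lower. It averaged 7109 ± 2512 in p110g-/- and 11141 ± 3701 in WT, lower in 4 of 4 pairs (log2 fold change −0.66, limma adjusted p = 0.824, and 0.0103 with the block). Fibroblast genes summed to 661 to 41138 in p110g-/- TAM and 2538 to 52862 in WT TAM, with 6 of 6 lower, against 53.2% of all genes, and none called. Neutrophil markers summed to 1452 to 3303 and 1287 to 4306, and carcinoma markers to 2218 to 4742 and 2431 to 4043, each p110g-/- TAM first. The carcinoma sum was mostly Cdh1, at 1801 to 3774 and 1008 to 2453 in the same order, and hides uneven members. Krt8 ran from 46 to 1569 and from 76 to 1648, and Epcam from 18 to 39 and from 2 to 9. Of these 4 markers 2 were lower and 2 higher in p110g-/- TAM, and none was called. The part of monocyte, macrophage, fibroblast and carcinoma content in the family's lower values was not tested.

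In whole tumors the T cell markers summed to 408 to 546 normalized counts in p110g-/- and 103 to 252 in WT, with 7 of 7 higher and 4 called. The NK and cytotoxic markers summed to 484 to 991 and 188 to 366, with 5 of 5 higher and 1 called. Over all genes tested, 51.6% were higher and 2.25% called as higher. Cd8a held 92, 67 and 73 in p110g-/- tumors and 9, 8 and 16 in WT tumors (log2 fold change 2.75, limma adjusted p = 0.00823). The carcinoma markers summed to 9261 to 10625 in p110g-/- tumors and 13954 to 15071 in WT tumors, the endothelial markers to 1203 to 1402 and 667 to 1118, and the macrophage markers to 28207 to 39662 and 26135 to 35574, in the same order. The part of this cell content in the members' tumor values was not tested. In TAM, T cell markers summed to 94 to 215 in p110g-/- and 84 to 193 in WT, with Cd8a and Cd8b1 at 0 in at least 1 library.

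Genes with the most similar profile over the 14 libraries were found by the root mean square difference of log2 values, each centred within its table. To the mean of the members, the nearest were Phf11d (0.142), Phf11b (0.142), Cmpk2 (0.165), Usp18 (0.172) and Rtp4 (0.172), against a median of 0.676 over 12391 genes. Phf11d averaged 578 ± 211 normalized counts in p110g-/- TAM and 1504 ± 365 in WT TAM. Oas3 and Oasl2 were each other's nearest genes (0.139), Oas1a was nearest to the Fc gamma receptor gene Fcgr1 (0.137) and Oas2 to Zbp1 (0.159). Oasl1 was nearest to Irf7 (0.221). The members farthest from each other were Oas2 and Oasl1, at 0.540.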

How the data were processed

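RNA was measured in 8 TAM and 6 whole tumor libraries. Bowtie2, DESeq and build mm9 were used, per the submitters' processing notes; the sources used here give neither counter nor annotation. The authors deposited 1 table per sample kind whose values are a score: normalized gene counts rounded to whole numbers. A column headed pp, of unstated meaning, was not used. Count models need raw counts, so the test was limma 3.58.1 in R 4.3.3, on log2(normalized count + 1), a scale that understates changes of low genes, with a mean-dependent prior, for genes reaching 10 in at least 4 TAM or 3 tumor libraries. Tests were two-sided, adjusted by Benjamini-Hochberg over all genes of the fit, with a threshold of 0.05. The genotypes were compared within each table, and the difference of effects over all 14 libraries. The fits without a block, and with a block in both tables, were tested on simulated data. The difference with a block on the TAM numbers only was not.

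Over 12416 genes, deviations from the group means of same-numbered TAM libraries correlated at 0.847, 0.483, 0.810 and 0.704, so numbers were taken to pair TAM libraries. The labels do not say what a number marks, and p110g-/- library 4 correlated as much with WT library 3 (0.706). Named genes were the members, the Oas1 paralogs, the pathway lists, chromosomal neighbours, and the nearest profiles (5 to the members' mean and 1 to each member). Members and lists were chosen with earlier results of these data known. RefSeq and GENCODE, on GRCm38, gave promoters, lengths and neighbours; no sequence was read by the mm9 coordinates. Alternatives were another pseudocount, filter, scaling, prior, weights, block and left-out libraries. Some genes are not reported here.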

Additional observations from a re-analysis of the deposited data

Results flagged for a closer look

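Oas2 had a library apart from the other 3 in both TAM groups: 2902 normalized counts in p110g-/- TAM 1, with a gap to the next library of 0.917 of the group's range, and 5132 in WT TAM 1, with a gap of 0.867. Both passed Dixon's critical value at the 95% level for groups of 4, which chance passes in about 1 in 20 groups, and 16 groups were examined.

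The genotype effect differed between TAM and whole tumor for all 5 members when the TAM numbers were a block (limma). With that block, 300 of 12396 genes (2.42%) passed with a lower value in TAM. Without it, 0 of the 5 members passed for this difference, at limma adjusted p of 0.138 to 0.373. The effect in TAM minus that in whole tumor was −1.10 for Oas1a, −1.98 for Oas2, −2.11 for Oas3, −1.78 for Oasl1 and −1.72 for Oasl2, on the log2 scale. For Oasl1 this came from a lower value in TAM, with a tumor value not told from 0. Without a block, no member passed limma in whole tumor, at adjusted p of 0.0566 to 0.499.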

How the results depend on the processing

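The log2 fold changes of the 5 members kept their sign under all 22 alternatives in TAM, 14 in whole tumor and 25 for the difference. The calls did not. In TAM, 0 members passed as reported, and 5 with the replicate block (also with 1 number left out or equal column totals), with sample quality weights and with libraries 3 and 4 only. A single fit of all 14 libraries called 1 member, and leaving out 1 library 0 to 1. Genes called in TAM were 14 as reported, 312 with the replicate block, 999 with quality weights, 88 with all 14 libraries in a single fit, 0 with libraries 1 and 2 only, 1428 with 3 and 4 only, and 3 to 40 with 1 library left out.

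Same-numbered tumors correlated at 0.0931, 0.0764 and 0.178, so those numbers are not taken as pairs. With the tumor numbers as a block, Oas2, Oas3 and Oasl2 passed as higher (3 members, with equal column totals too; limma adjusted p 0.0230, 0.0408 and 0.0403, where 3.45% of all genes passed as higher), 4 members passed with quality weights, and 0 to 3 with 1 library left out. Genes called in whole tumor were 553 as reported, 759 with the block, 2308 with quality weights, 131 with a prior that does not depend on the mean, 15 with all 14 libraries in a single fit, and 29 to 2001 with 1 library left out.

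For the difference of effects, 0 members passed as reported. All 5 passed with the block on the numbers of both tables, with the block on the TAM numbers only (also without both TAM libraries of any 1 number), and with quality weights, and 0 to 5 passed with 1 library left out. Genes called were 18 as reported, 327 and 404 with these blocks, 1249 with quality weights and 0 to 101 with 1 library left out. The cause of these shifts was not tested. The lowest value of a member was 95 normalized counts, and the part of depth in the calls was not tested.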

Other observations

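The members lie in 2 clusters on chromosome 5, and the nearest measured genes on either side were read for comparison. In TAM, Ankrd13a, 2610524H06Rik, 2210016L21Rik and Sppl3 around the Oasl genes, and Ptpn11 and Rpl6 beside the Oas genes, had log2 fold changes of −0.17 to 0.13 for p110g-/- over WT, and none passed limma with or without the block (blocked adjusted p of 0.266 to 0.976). Rpl6, a ribosomal protein gene, averaged 25319 ± 1455 normalized counts in p110g-/- TAM and 27836 ± 2495 in WT TAM (SD, n = 4 each). In whole tumors 2210016L21Rik had a log2 fold change of −0.32 (limma adjusted p = 0.0528), and the other 5 lay between −0.35 and 0.06. Rasal1 and Dtx1, on the other side of the Oas genes, were below the minimum for a test.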
